A study of Mus musculus with 22 samples.

Results

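Arid5a (locus XLOC_000252) and Il1r1 (locus XLOC_000301) are immune signalling genes measured in Purkinje cells (PCs) of mice with and without a PC deletion of Tsc1. They are 2 of 66494 loci in each deposited table, and both were selected on values of these libraries. Il1r1 was chosen by its lower value in sorted mutant PCs, and Arid5a by its higher value on mutant ribosomes without rapamycin and by the shift of that value relative to total RNA. Those values are given below as a description, and tests are given on contrasts that no list of the study with that member was drawn from. Both genes were nevertheless picked with earlier results of all these libraries known, so the p values below are not from untouched data. The study profiled total RNA of sorted PCs in 10 libraries and ribosome-bound RNA of PCs in 12 libraries, the latter by translating ribosome affinity purification (TRAP). The labels give a C57BL/6 background for every library. Mutants (labelled CC) were Tsc1 fl/fl and controls (labelled WW) were Tsc1+/+, and the methods give both genotypes L7Cre, a Cre driven by the Pcp2 promoter in PCs. Animals for sorting also carried L7GFP, and GFP-positive cells of the cerebellum were collected for 5 mutant and 5 control libraries. The paper's legend on the sorting gates gives these controls as Tsc1+/+ L7GFP and names no Cre for them. Animals for TRAP carried Rosa26fsTRAP, which tags ribosomes with GFP after Cre, and whole cerebellum was used for the pull-down in 4 groups of 3 libraries (each genotype without and with rapamycin). Ages are not stated in the labels, and neither is how rapamycin was given. The methods name 2 ages for the sorted animals and assign no library to either, so that sorted libraries may differ in age.

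Tsc1 and Tsc2 form the complex that restrains mTORC1, the kinase that promotes protein synthesis, and rapamycin inhibits mTORC1. Il1r1 encodes the signalling receptor of interleukin 1, which with its partner Il1rap recruits Myd88 and Irak kinases and activates NF-kB and MAP kinases. In the brain the receptor is best known on endothelial cells and is also found on some neurons. Arid5a encodes an AT-rich interaction domain protein that binds nucleic acids and stabilises inflammatory mRNAs such as those of Il6 and Stat3.

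Both genes lie on the plus strand of chromosome 1 of GRCm38. Arid5a extends from 36307733 to 36324029, and its locus was paired with the transcript ENSMUST00000126413, which has 7 exons. Il1r1 extends from 40225080 to 40317257, and its locus was paired with ENSMUST00000027241, which has 11 exons. No annotated gene overlaps Arid5a. The unclassified gene Gm38070 lies within Il1r1 on the same strand and shares no exon sequence with it. The bases around each start are shown because mRNAs whose translation is known to depend most on mTORC1 begin with a terminal oligopyrimidine (TOP) stretch. The RefSeq promoter table (GRCm38.p6) held both genes. The 70 bases before the annotated start are in lower case, and capitals mark the first 30 transcribed bases.
Arid5a, chr1:36307663-36307762, plus strand: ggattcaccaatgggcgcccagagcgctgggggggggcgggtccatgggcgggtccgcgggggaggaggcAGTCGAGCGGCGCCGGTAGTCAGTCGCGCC
Il1r1, chr1:40225010-40225109, plus strand: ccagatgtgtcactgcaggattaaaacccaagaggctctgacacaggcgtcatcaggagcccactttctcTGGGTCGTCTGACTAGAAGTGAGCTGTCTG
A TOP-like start was defined as a C followed by at least 4 bases that are each C or T, on the transcribed strand. Neither gene had it at these starts, as against 823 of 32851 promoters in the table (2.51%).

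In sorted PCs, Arid5a was found at similar values in both genotypes. The deposited values are estimated fragments divided by a size factor per library. In controls 144a, 144b, 176, 45 and 48 Arid5a was at 5146, 4914, 3960, 1964 and 2698, and its mean was 3737 ± 1382 (SD, n = 5). In mutants 103, 167, 191, 61 and 74 it was at 4614, 2400, 3630, 4648 and 3821, and its mean was 3823 ± 918 (SD, n = 5). Every mutant lay inside the range of the controls. The mean log2(value + 1) was 11.78 ± 0.59 in controls and 11.86 ± 0.39 in mutants (SD, n = 5), and the difference of 0.09 was smaller than either SD. The submission number in the labels groups the libraries unevenly, and only submission MS3005 holds both genotypes. Within it, mutants 167 and 191 were below controls 144a and 176, and the difference was -0.61.

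Il1r1 was lower in sorted mutants, which is the pattern it was chosen by. It was at 910, 878, 852, 595 and 283 in controls 144a, 144b, 176, 45 and 48, with a mean of 703 ± 266 (SD, n = 5). In mutants 103, 167, 191, 61 and 74 it was at 297, 329, 339, 178 and 192, with a mean of 267 ± 76.8 (SD, n = 5). Mutants 103, 167 and 191 exceeded control 48, and the other 4 controls lay above every mutant. The numbers of 144a and 144b may mean 1 animal, and their values were close. The log2 difference was -1.33 over all libraries and -1.39 within MS3005. Summed over libraries, Il1r1 took 3943 fragments in controls, or 10.7 per M fragments, and 1308 in mutants, or 4.39 per M. The filter kept 16455 genes, those averaging 5 or more in log2(value + 1). Of these, 242 (1.47%) passed the thresholds of the study, an unadjusted limma p below 0.01 with more than a 2-fold difference, 177 of them (1.08%) downward in mutants. Il1r1 was among the latter by choice, and nothing is read from that count. It fell short of the thresholds with the submission as a term, with 144a and 144b averaged as 1 control, and with any of mutants 61 and 74 or controls 144a, 144b and 176 left out. Without the filter the direction of the calls turned, and 477 of 702 loci were higher in mutants. Over the 16455 genes that passed the filter, the smallest Benjamini-Hochberg adjusted limma p was 0.394. In the limma fit without the filter the smallest adjusted p was 0.000727, and that of Il1r1 was 0.592.

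**Figure D1:**
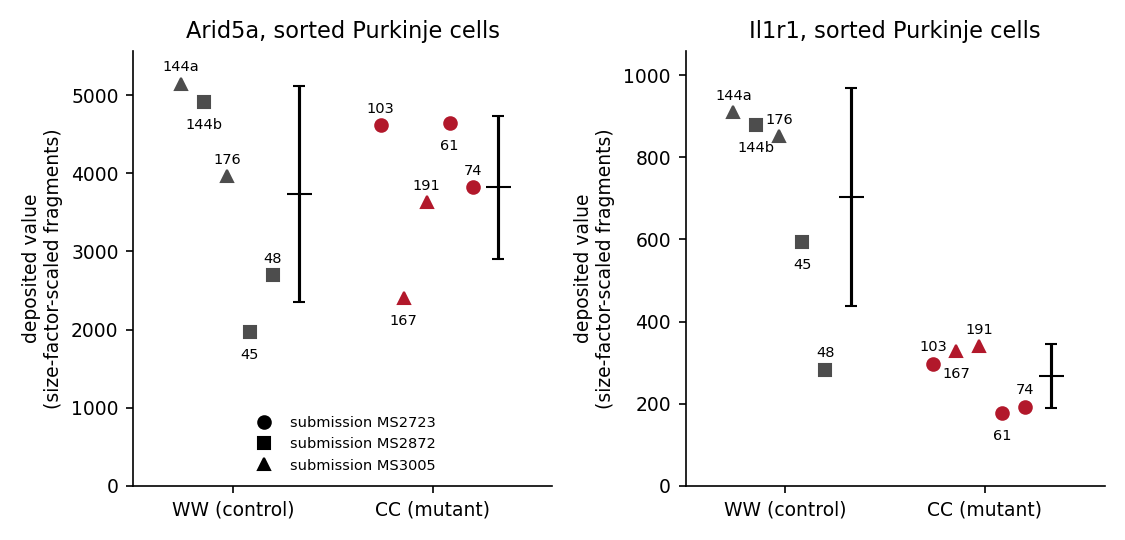
Deposited values (vertical axis, size-factor-scaled fragments) of Arid5a (left) and Il1r1 (right) in 5 control and 5 mutant libraries of sorted PCs, with the library number beside each point, the submission as the symbol, and the mean ± SD beside each group. Arid5a overlapped fully between genotypes, while 4 of 5 controls lay above every mutant for Il1r1.

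Marker values of PCs also differed between the sorted genotypes. The sum of the deposited values of 17 PC markers (of 18 listed, those with a paired locus) was 681435, 650295, 399685, 736618 and 524929 in controls 144a, 144b, 176, 45 and 48. It was 58094, 428075, 393441, 87235 and 141136 in mutants 103, 167, 191, 61 and 74. The 3 mutants of submission MS2723 were thus far below the other libraries, and all 17 markers were above 0 in both genotypes. Pcp2, the most abundant marker, was at 75545 to 159421 in controls and at 6101 to 131341 in mutants. In bulk RNA, fewer PCs and less RNA per PC cannot be told apart. The marker sums of mutants 167 and 191 were close to that of control 176, and Il1r1 was at 329 and 339 in these mutants and at 852 in that control. Control 48 had a sum of 524929 and Il1r1 at 283. The part of PC content in the pooled Il1r1 difference was not tested.

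Among markers of other cell types, some astroglial ones differed between the sorted genotypes. The summed value of 7 microglial and macrophage markers, led by Csf1r, was 12744 to 55650 in controls and 15612 to 37662 in mutants. That of 3 vascular markers, led by Flt1, was 19751, 19057, 16793, 7077 and 6210 in controls 144a, 144b, 176, 45 and 48, which is also the order of Il1r1 in them. In mutants 103, 167, 191, 61 and 74 the vascular sum was 13930, 24859, 11185, 2105 and 5024, and mutants 61 and 74 were lowest in both measures. The genotypes overlapped in both sums, and mutant 167 had the highest vascular sum with Il1r1 at 329. The part of vascular RNA in the Il1r1 values was not tested. The sum of 4 astroglial markers, led by Apoe, was 118832 to 290628 in controls and 223157 to 353410 in mutants, but 2 of the 4 passed the thresholds upward, as 0.395% of all genes tested did. Sox2 was at 2451 to 4798 in controls and 5730 to 10704 in mutants, without overlap. Tnc was at 10493 to 26266 in controls and 25020 to 68570 in mutants. Apoe and Gfap did not pass. The part of astroglial RNA in the Il1r1 difference was not tested. Opalin, the only oligodendrocyte marker with a paired locus, was at 1920 to 6182 in controls and 977 to 7427 in mutants. No listed granule cell marker had a paired locus.

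Among the other genes of IL-1 and IL-6 signalling and the Arid family, few could be followed. Of 61 listed genes, 8 had a locus that the study's gene lists pair with a symbol, and those lists hold genes chosen on these same libraries. In sorted PCs 7 of the 8 were tested, and Il1r1, chosen on this contrast, was the only one to pass the thresholds, as 1.47% of all genes did. The median log2 difference was -0.51, as against 0.03 over all genes tested. Tollip, an adaptor that restrains the receptor complex, was at 12822 to 17217 in controls and 8046 to 14514 in mutants. Mapk3, the kinase ERK1, was at 6857 to 13486 in controls and 3427 to 9897 in mutants. Traf1, an adaptor of TNF receptors, was at 844 to 1545 in controls and 1270 to 4738 in mutants. Il6ra, the IL-6 receptor, was at 288 to 483 in controls and 135 to 383 in mutants. These 4 ranges overlapped, and none of the 4 genes passed the thresholds. Il1rn, the antagonist that occupies the IL-1 receptor, did not pass the filter on low values. It was listed at 0 in 4 of 5 controls and at 50.7 in control 176, and it was at 58.1, 623, 163, 11 and 46.5 in mutants 103, 167, 191, 61 and 74.

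Of 12 listed cytokines, chemokines and receptors, 8 were tested in sorted PCs, 3 passed the thresholds upward and 1 (Il1r1) downward, as against 0.395% and 1.08% of all genes tested, and the median log2 difference was 0.05. The list was also chosen with results of these libraries known, so its share is no evidence of its own. Cd70, a TNF family ligand, had a log2 difference of 1.89 (SE 0.52), and Ccl12, a monocyte chemokine, had a log2 difference of 1.53 (SE 0.45). Il17rd, a receptor of the IL-17 family, was at 114 to 359 in controls and at 413 to 900 in mutants, a log2 difference of 1.35 (SE 0.34). The adjusted limma p was 0.394 for each of these, so none passed a threshold of 0.05 after adjustment.

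On ribosomes without rapamycin, Arid5a was higher in mutants than in controls, the contrast it was chosen by. In TRAP controls 1, 2 and 3 it was at 3.40, 3.14 and 3.90, with a mean of 3.48 ± 0.39 (SD, n = 3). In TRAP mutants 1, 2 and 3 it was at 13.7, 19.6 and 15.8, with a mean of 16.4 ± 2.97 (SD, n = 3). The groups did not overlap. The log2 difference was 1.94, beside a median of 0.07 over all genes tested. Of 9658 genes tested, 189 (1.96%) passed the thresholds, 91 of them (0.942%) upward, and in 826 (8.55%) every mutant was above every control. Arid5a belonged to each of these sets by choice, and nothing is read from that. It fell short of the thresholds with values scaled to equal totals and with a pseudocount of 10. TRAP and sorted tables were scaled separately, so levels are not compared between them directly. Relative to other genes, the log2 TRAP value minus the log2 sorted value of Arid5a was -9.62 in controls, below the median of -7.03 over 8898 genes, and -7.76 in mutants, where the median was -6.86.

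Under rapamycin Arid5a stood lower in both genotypes, and the order of the groups was mutant, mutant with rapamycin, control, and control with rapamycin. In mutants with rapamycin 1, 2 and 3 it was at 7.24, 8.09 and 5.54, with a mean of 6.95 ± 1.30 (SD, n = 3). In controls with rapamycin it was listed at 0 in libraries 1 and 3 and at 0.884 in library 2. No group overlapped its neighbour in this order on the deposited scale. Arid5a was the only locus with this order among 9174 genes passing the filter over the 12 libraries (0.0109%), but the order contains the contrast it was chosen by and was noted after its values were seen. The rapamycin difference of Arid5a was -1.13 in mutants, where every library with rapamycin was below every library without it, as in 9.38% of 9664 genes, and where 169 genes (1.75%) passed the thresholds without Arid5a. In controls the rapamycin difference was -1.86. Both share the untreated libraries with the contrast Arid5a was chosen by and are a description. The interaction was 0.73 with an SE of 0.58, and 175 of 9174 genes (1.91%) passed the thresholds for it without Arid5a.

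**Figure D2:**
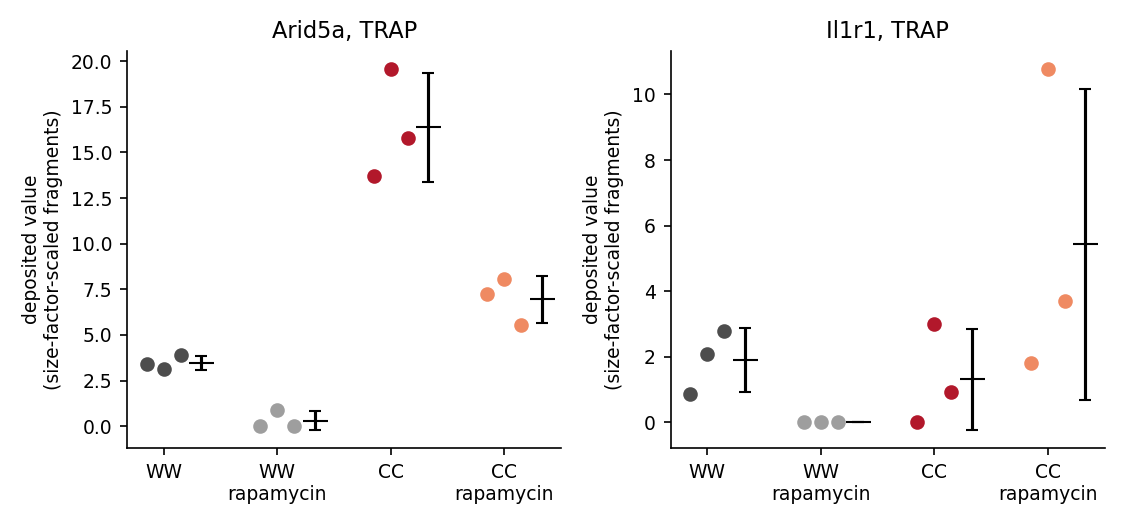
Deposited TRAP values (vertical axis, size-factor-scaled fragments) of Arid5a (left) and Il1r1 (right) in 4 groups of 3 libraries, with the mean ± SD beside each group. Arid5a was at 13.7 to 19.6 in mutants, 5.54 to 8.09 in mutants with rapamycin, 3.14 to 3.90 in controls and 0 to 0.884 in controls with rapamycin.

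The contrast of mutants and controls under rapamycin used 6 libraries that no list of the study was drawn from. Every mutant was above every control for Arid5a, as in 6.44% of 20386 loci above 0 in these libraries. The log2 difference was 2.67, or 2.36 above the median difference of 0.32 over genes tested. The mean log2 value of Arid5a here was below the filter of 2, so it was not among the 8728 genes tested, of which 107 (1.23%) passed the thresholds. The exact two-sided permutation test gave p = 0.10, the smallest that 3 against 3 libraries allow (adjusted p = 0.167 over 5 such tests of the members). Without the filter, Arid5a was among 535 of 20386 loci (2.62%) past the thresholds, 480 of them (2.35%) upward, with a limma adjusted p of 0.0743. The only other fit that included Arid5a held all 12 TRAP libraries and gave a limma adjusted p of 0.0103. That p is no independent test, because Arid5a passed the filter there through the untreated mutants it was chosen on, and the fit takes part of its variance from them. The genotype difference of Arid5a under rapamycin thus showed in all 6 libraries, and in the fit of these 6 alone it missed an adjusted p of 0.05.

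These TRAP values rest on few fragments. Depth was 2.47 to 6.38 M fragments per TRAP library, as against 43.3 to 86.3 M per sorted library, and the 10 highest loci took 40.5% to 72.6% of a TRAP library. Arid5a took 4, 5 and 7 fragments in the controls, 7, 13 and 52 in the mutants, 0, 1 and 0 in the controls with rapamycin, and 4, 6 and 3 in the mutants with rapamycin. Mutant 3 held 52 of the 72 fragments of its group. Its deposited values summed to 0.861 M, less than in any other TRAP library, and Arid5a was at 18.3 fragments per M there, as against 2.61 and 3.81 in mutants 1 and 2. Intervals below are exact and cover counting error only. Those of summed fragments leave out the variation between the libraries of a group. PCR copies are not independent molecules, so even the counting error may be understated. The summed share in mutants was 8.57 times that in controls (4.93 to 15.8), and 3.49 times (1.72 to 7.20) without mutant 3. Under rapamycin the 13 fragments in mutants and 1 fragment in controls gave a ratio of 19.8 (2.97 to 840.0). Per M fragments, mutants with rapamycin were at 1.62, 1.78 and 0.948 and controls at 0.816, 0.873 and 1.10, so that these neighbours in the order overlapped on that scale.

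**Figure D3:**
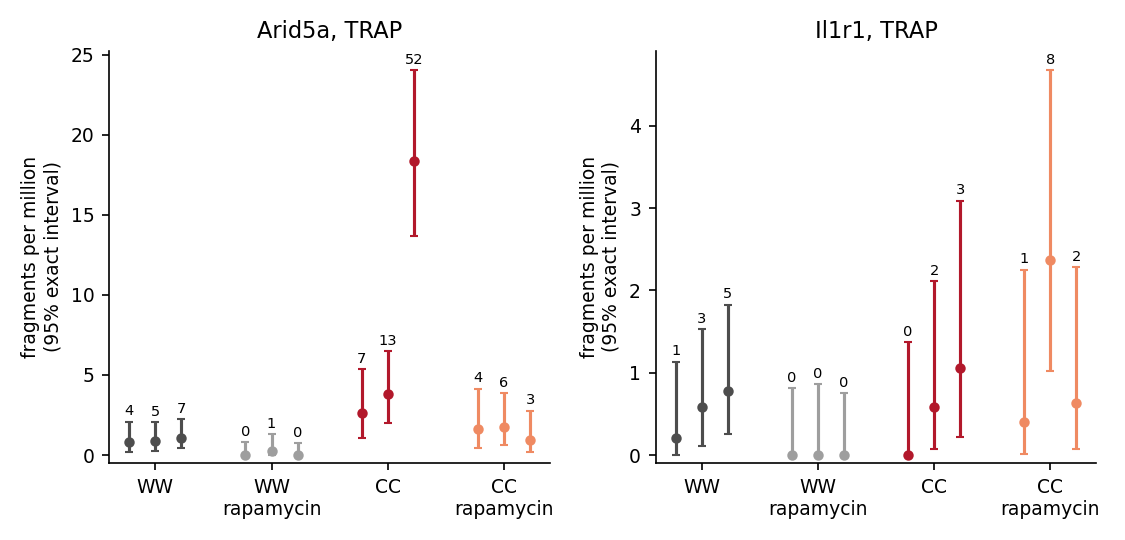
Fragments per M (vertical axis) of Arid5a (left) and Il1r1 (right) in each TRAP library, with exact 95% binomial intervals and the number of fragments above each bar. Mutant 3 stood apart for Arid5a with 52 fragments, and Il1r1 took at most 8 fragments in any library.

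Low values fell to 0 in the controls with rapamycin for many loci. These libraries had 8449 to 11082 loci above 0, as against 12471 to 15581 in controls, 13638 to 20951 in mutants and 11882 to 15249 in mutants with rapamycin. Of 743 loci that had a mean of 1 to 4 in controls and were above 0 in all 3, a range set after seeing that both members lie in it, 57.9% were listed at 0 in 2 or 3 of the controls with rapamycin, as Arid5a was. In all 3 of these libraries 23.7% were listed at 0, as Il1r1 was. The share at 0 in all 3 libraries was 0.808% in mutants and 5.52% in mutants with rapamycin. Of the same loci, 6.46% had all 3 mutants with rapamycin above all controls without it, as Arid5a had. A value of 0 in most controls with rapamycin was thus shared with a large part of loci of that level.

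Il1r1 was near the limit of detection on ribosomes. In TRAP controls 1, 2 and 3 it was at 0.851, 2.09 and 2.78, and in mutants at 0.000114, 3.01 and 0.910. These groups overlapped, and the difference of -0.50 in log2(value + 1) was smaller than the SD of the mutants. In mutants with rapamycin it was at 1.81, 10.8 and 3.69, and in all 3 controls with rapamycin it was listed at 0. The order by mean was thus mutants with rapamycin, controls, mutants, and controls with rapamycin, and the first 3 of these groups overlapped. Il1r1 did not pass the filter in any TRAP comparison unless mutant 1 was left out, when it passed for rapamycin in mutants and was not called.

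Il1r1 was chosen on the sorted libraries, and its TRAP contrasts were tested. Under rapamycin every mutant was above every control, as in 6.44% of 20386 loci, and the exact two-sided permutation test gave p = 0.10 (adjusted p = 0.167), the smallest possible. The mutants had 11 fragments and the controls 0 of 13.7 M, which allows up to 0.219 per M. Against that floor of 3 fragments over the group, Il1r1 was at least 5.57-fold higher in the mutants. The exact lower limit of the ratio, which covers the counting error of both groups and no variation between libraries, was 3.82. Mutant library 2 held 8 of the 11 fragments, and without it 3 fragments remained, or 0.532 per M, with a lower limit of 1. In controls, rapamycin libraries were all below libraries without it, as for 6.91% of 19557 loci (exact permutation p = 0.10, adjusted p = 0.167). Among the 743 loci with a control mean of 1 to 4 described above, which include Il1r1, that share was 30.3%. Il1r1 was at least 2.50-fold lower against the same floor, with an exact lower limit of 1.59. In mutants the rapamycin difference had an exact permutation p of 0.20 (adjusted p = 0.25), and without rapamycin the genotype difference had p = 0.70 (adjusted p = 0.70). Without the filter, limma gave adjusted p values of 0.336, 0.268, 0.670 and 0.679 for these 4 contrasts in the same order. Without rapamycin the summed shares were 0.560 per M in mutants (0.182 to 1.31) and 0.548 in controls (0.242 to 1). The ratio was 1.02, and its interval of 0.278 to 3.51 covers counting error only.

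Some astroglial markers were also higher in the TRAP mutants without rapamycin. The summed value of 4 astroglial markers, all paired with a locus among 9 listed, was 360 to 492 in mutants, 71.8 to 162 in controls, 54.3 to 161 in mutants with rapamycin and 60.1 to 119 in controls with rapamycin. Apoe, the most abundant, was at 203 to 263 in mutants and 32.3 to 108 in controls. Gfap was at 139 to 224 in mutants and 17 to 44.5 in controls. Tnc went the other way, with 0 to 2.12 in mutants and 5.57 to 15.3 in controls, and was at 0 in the controls with rapamycin. Sox2 overlapped between these groups. The microglial sum was 33.6 to 53.0 in mutants, 50.4 in control with rapamycin 3 and at most 6.90 in controls, where C1qc and Cd74 were at 0, and the 3 vascular markers were at 0 in the controls. The PC sum differed less, with 10675 to 11872 in mutants and 12553 to 14451 in controls, where Gad2 was at 0. Itpr1, the most abundant PC marker in controls, was at 1426 to 1503 in mutants and 2563 to 3328 in controls. The other PC markers did not all follow it, and Calb1 had a mean of 1608 in mutants and 1611 in controls. In the pair of groups with rapamycin the astroglial sums overlapped, while Arid5a was at 5.54 or more in every mutant and at most at 0.884 in the controls. The part of astroglial RNA in the untreated difference was not tested.

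**Figure D4:**
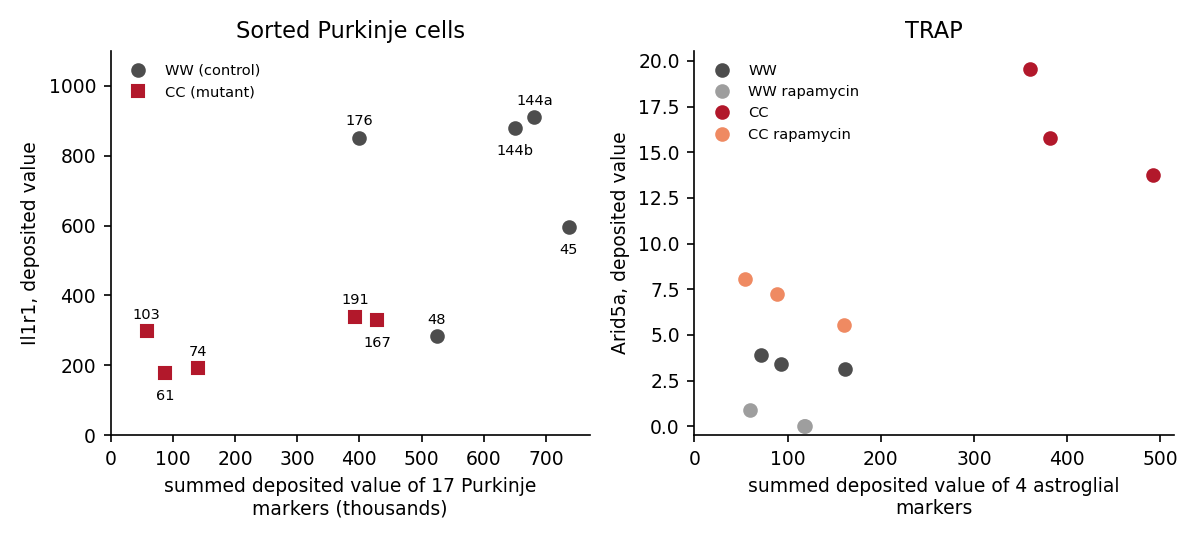
Left, Il1r1 (vertical axis, deposited value) against the summed deposited value of 17 PC markers (horizontal axis) in 10 sorted libraries. Right, Arid5a (vertical axis, deposited value) against the summed deposited value of 4 astroglial markers (horizontal axis) in 12 TRAP libraries, with 2 controls with rapamycin nearly on the same point. Mutants 167 and 191 had PC sums near control 176 and lower Il1r1, whereas control 48 had a higher PC sum than both mutants and lower Il1r1. The 3 untreated TRAP mutants had both the highest astroglial sums and the highest Arid5a.

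Few other genes of the pathway were measured on ribosomes. Of the 8 paired genes of IL-1 and IL-6 signalling, 3 were tested without rapamycin, and none but Arid5a, which was chosen on this contrast, passed the thresholds, as 1.96% of all genes tested did. Mapk3 shared the genotype order of Arid5a, although it did not pass both thresholds with or without rapamycin. Without rapamycin it was at 32.2 to 43.2 in mutants and 17.9 to 27.0 in controls, without overlap as in 8.55% of genes tested. With rapamycin it was at 38.8 to 45.8 in mutants and 3.69 to 25.9 in controls, without overlap as in 7.37%. Tollip was at 80.4, 146 and 93.8 in controls, 114, 158 and 181 in mutants, 152, 172 and 202 in mutants with rapamycin, and 92.9, 40.1 and 57.1 in controls with rapamycin. With rapamycin every mutant was above every control for Tollip too, as in 7.37% of genes tested. Its limma adjusted p was 0.863 for the genotype difference under rapamycin. Il1rn was listed at 0 in every TRAP library but mutant 3, where it was at 0.303. Of the 12 cytokine and receptor genes, 11 were listed at 0 in all controls with rapamycin, Il1r1 among them, and Csf1r was the exception with 40.0 in library 3. In controls 7 of the 12 were at 0 in all libraries, in mutants with rapamycin 6 and in mutants 2. The 2 in mutants rests on library 3, where 9 of the 12 were above 0, as against 5 in each of mutants 1 and 2. Over all loci, the controls with rapamycin also had the fewest above 0 (8449 to 11082). The share of all loci at 0 in each group was not taken, so nothing is read from these counts.

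The loci whose patterns were most like those of the members were ranked by Pearson's r of log2(value + 1), among loci with a symbol that passed the filter. In the 10 sorted libraries, Arid5a was most like Ctso (r = 0.93), a cathepsin, Acad8 (r = 0.92), a mitochondrial dehydrogenase, and Slco4a1 (r = 0.91), an organic anion transporter. Il1r1 was most like Rassf4 (r = 0.94), a Ras association domain protein whose gene the locus overlaps only in part, Ctgf (r = 0.93), a matricellular growth factor, and Net1 (r = 0.92), an exchange factor of RhoA. Ctgf was at 1155 to 8472 in controls and at 213 to 1700 in mutants. In the 12 TRAP libraries, Arid5a was most like Abr, Depdc5 and 1700042G07Rik (r = 0.92, 0.92 and 0.91). Depdc5 encodes a subunit of GATOR1, which restrains mTORC1, but its locus overlaps that gene only in part. It ran from 1720 to 2052 in mutants and from 1019 to 1318 in controls with rapamycin. Il1r1 was most like Jakmip1, Orai2 and Msl3l2 (r = 0.80, 0.79 and 0.75). The ranking is a description, and the libraries of a group share genotype and treatment. The loci with a symbol come from the study's gene lists, which hold genes chosen on these same libraries, so nothing is read from a high r.

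Across all 6 comparisons the differences of the members are set side by side in the plot of log2 differences. The comparisons share libraries, and each has its own values.

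**Figure D5:**
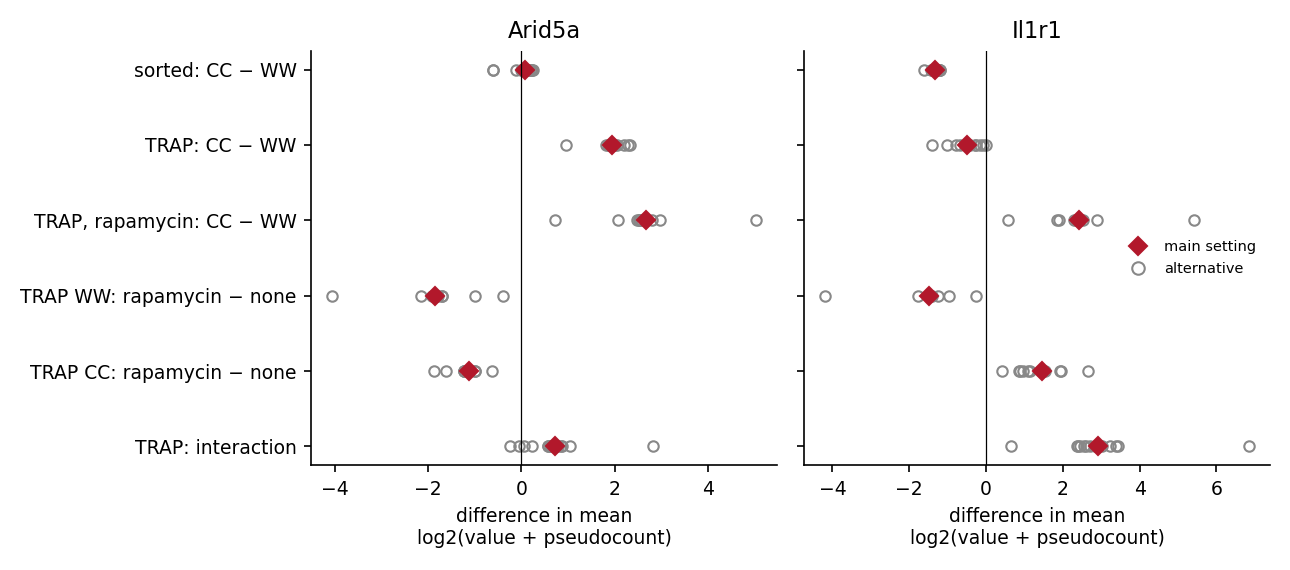
Difference in mean log2(value + pseudocount) of Arid5a (left) and Il1r1 (right) in each comparison (vertical axis), with the main setting as a diamond (pseudocount of 1) and each alternative processing as an open circle. Il1r1 lay below 0 in sorted PCs and above 0 for the TRAP genotype difference under rapamycin in every setting drawn. Because Il1r1 was listed at 0 in all 3 controls with rapamycin, nothing is read from the constant sign there. Arid5a lay on both sides of 0 in sorted PCs and for the interaction.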

How the data were processed

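According to the methods and the submitters' processing notes, reads were trimmed with Trimmomatic 0.39, mapped to GRCm38 with STAR 2.7.0f and quantified with Cufflinks 2.2.1 on an assembled transcriptome. The authors deposited a signal per locus, which is an estimated fragment count divided by 1 size factor per library, in tables scaled separately for sorted PCs and TRAP. For RNA sequencing the methods name a library kit for sorted cells, which does not mark strand, and name none for TRAP. The most frequent value above 0.05 of a library was taken as the worth of 1 fragment, and 68.8% to 95.3% of values above 0.05 were within 0.02 of a whole multiple, so comparisons across genes used the values and not counts. Only the intervals and ratios of the members take estimated fragments as counts. Genes whose log2(value + 1) averaged 5 or more (sorted) or 2 or more (TRAP) were compared with limma 3.58.1 in R 4.3.3, the package named in the study's methods, which state no design. Each fit held the groups compared and no covariate. The interaction used all 12 TRAP libraries. Thresholds were 0.01 for the unadjusted p and 2-fold for the difference on the log2(value + 1) scale, which understates changes of low genes, and adjusted p values are Benjamini-Hochberg values over all genes tested. Exact permutation tests compared the mean log2 values of the members. Arid5a passed the filter in sorted PCs, in TRAP without rapamycin, in TRAP mutants and over all TRAP libraries, and Il1r1 passed it in sorted PCs only. Named genes are the members, the 3 most similar named loci per member and table, and the 2 signalling lists; 1832 loci had a symbol, from the study's gene lists. Coordinates come from GENCODE for GRCm38. Members and lists were chosen with earlier results of these data known. Alternatives tried were other pseudocounts, filters and scalings, an intensity trend, submission and replicate terms, and leaving out each library. Scripts were tested on simulated data.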

Additional observations from a re-analysis of the deposited data

Results flagged for a closer look

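The rapamycin difference of Il1r1 in TRAP went in opposite directions in the genotypes. On the log2(value + 1) scale it was -1.48 in controls and 1.45 in mutants. The interaction was 2.92, and limma without the filter on low values gave an adjusted p of 0.590. The rise in mutants depended on single libraries and on the scale. On the log2(value + 1) scale it was 0.88 without mutant library 2 with rapamycin, and 0.96 without untreated mutant 1. Per M fragments the ratio to untreated mutants was 2.18 (0.699 to 8.01) with mutant library 2 with rapamycin. Without that library the ratio was 0.951 (0.148 to 4.89), so the rise was lost on that scale. The differences rest on 9.32, 0, 5 and 11 estimated fragments in controls, controls with rapamycin, mutants and mutants with rapamycin.

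Among the sorted controls, library 45 had a low sum of the astroglial markers, 16.86 on the log2 scale, as against 17.84 to 18.15 in the other 4. It was the only library to stand apart in 18 groups of 5 libraries examined, and chance makes a library stand apart in about 1 in 20 groups.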

How the results depend on the processing

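Counts of genes past the thresholds moved in every comparison, and the cause was not tested. For the sorted genotype difference the count of 242 became 702 without the filter, 33 with the submission number as a term, 100 in submission MS3005 alone, and 104 to 530 with 1 library left out. For the TRAP genotype difference without rapamycin, 189 became 441 without the filter, 78 with equal totals, 52 with all 4 groups in 1 fit, and 98 to 354 with 1 library left out. Under rapamycin the genotype count of 107 became 55 with a pseudocount of 0.1, 535 without the filter, 32 with a stricter filter, 435 with all 4 groups in 1 fit, and 36 to 430 with 1 library left out. For the rapamycin difference in controls, 91 became 39 with a pseudocount of 0.1, 509 without the filter, 24 with a stricter filter, 53 with an intensity trend, 425 with all 4 groups in 1 fit, and 29 to 434 with 1 library left out. In mutants, 169 became 410 without the filter, 109 with equal totals, 255 with equal totals without the 10 highest loci, 44 with all 4 groups in 1 fit, and 72 to 221 with 1 library left out. For the interaction, 175 became 95 with a pseudocount of 10, 381 without the filter, 36 with a stricter filter, 28 with equal totals, 101 with an intensity trend, 70 with equal totals without the 10 highest loci, and 121 to 529 with 1 library left out.

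Scaling, the filter and single libraries moved the direction of the calls. Without the filter the share of called loci that was higher went from 26.9% to 67.9% for the sorted difference, from 48.1% to 71.7% for the TRAP genotype difference, from 78.5% to 89.7% for it under rapamycin, and from 86.9% to 68.0% for the interaction. With a stricter filter it went to 25% under rapamycin, to 75% for rapamycin in controls and to 47.2% for the interaction. With an intensity trend it was 44.9% under rapamycin and 30.2% for rapamycin in controls. Leaving out 1 library gave 14% to 48.3% for the sorted difference, 32.2% to 69.0% for the TRAP genotype difference, 38.9% to 93.0% for it under rapamycin, 6.35% to 64.5% and 19.3% to 60.6% for rapamycin in controls and mutants, and 76.2% to 89.4% for the interaction. With equal totals it went to 37.3% for the sorted difference. For the TRAP genotype difference it went to 94.9%, or 90.2% without the 10 highest loci. Under rapamycin it went to 53.6%, 66.3% without the 10 highest loci, and 61.9% with quantile normalization. For the rapamycin difference it went from 18.7% to 36.4% with quantile normalization in controls, and from 27.2% to 0.917% with equal totals in mutants, or 3.92% without the 10 highest loci. For the interaction it went to 35.7%, or 58.6% without the 10 highest loci. With equal totals the median of all genes moved from 0.07 to 0.47 for the TRAP genotype difference without rapamycin, from 0.32 to -0.07 under rapamycin, from -0.04 to -0.80 for the rapamycin difference in mutants, and from 0.33 to -0.45 for the interaction. Equal totals without the 10 highest loci was chosen after seeing the data.

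The TRAP libraries of the same number were not more alike than others. With the number as a replicate block the counts were 202 for the genotype difference without rapamycin, 64 under rapamycin, 71 for controls and 100 for mutants with and without rapamycin, and 159 for the interaction. The difference of Arid5a without rapamycin, 1.94, cannot change with a block in this balanced design, and its SE went from 0.33 to 0.39.

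No difference of a member that passed the thresholds changed sign, but calls were lost. Il1r1 in sorted PCs fell short of the unadjusted p threshold with the submission number as a term, with 144a and 144b averaged, and in 5 of 10 fits with 1 library left out. Arid5a in TRAP without rapamycin fell short of it with equal totals, fell below 2-fold with a pseudocount of 10, and was not tested with the stricter filter. Calls were also gained. Arid5a gained that for rapamycin in mutants with a pseudocount of 0.1 (-1.22) and without the filter, and those under rapamycin and for rapamycin in controls without the filter and with all 4 groups in 1 fit. Il1r1 gained 3 without the filter, under rapamycin, for rapamycin in controls and for the interaction. Il1r1 in sorted PCs ran from -1.63 to -1.19 over all settings. Arid5a in sorted PCs became -0.61 with the submission number as a term and in submission MS3005 alone. Its TRAP genotype difference without rapamycin (1.94) became 0.96 with a pseudocount of 10, 2.19 with 0.1, 2.34 with equal totals and 2.29 without the 10 highest loci, and that of Il1r1 (-0.50) became -1.42 with a pseudocount of 0.1. Under rapamycin the difference of Arid5a (2.67) became 0.72 with a pseudocount of 10, 5.02 with 0.1 and 2.07 with quantile normalization, and that of Il1r1 (2.43) became 0.58 and 5.42 with these pseudocounts. The rapamycin difference in controls became -0.39, -4.06 and -0.996 for Arid5a and -0.25, -4.18 and -0.96 for Il1r1 with a pseudocount of 10, with 0.1 and with quantile normalization. In mutants it became -0.63 for Arid5a with a pseudocount of 10, -1.87 with equal totals and -1.62 without the 10 highest loci, and for Il1r1 0.41 and 2.66 with pseudocounts of 10 and 0.1. The interaction of Arid5a became -0.24 and 2.83 with pseudocounts of 10 and 0.1, -0.0495 with quantile normalization, 0.0654 with equal totals and 0.23 without the 10 highest loci, and that of Il1r1 became 0.66 and 6.84 with these pseudocounts. A pseudocount near the values shrinks a log2 difference by construction.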

Other observations

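Among the 12 cytokine and receptor genes, Ccl6, a chemokine of myeloid cells, was the only one listed on ribosomes in all 3 untreated mutants and in no other group. The share of all loci with this pattern was not taken, so nothing is read from it. Untreated mutants had 13638 to 20951 loci above 0, as against 12471 to 15581 in controls. Ccl12, Cxcl5, Il1rn and Tnfsf13b were each above 0 in 1 untreated mutant only. Ccl6 was at 11.8, 4.52 and 1.52 in TRAP mutants 1, 2 and 3 and was listed at 0 in the other 9 TRAP libraries. The sum of 7 microglial and macrophage markers was also higher in these mutants, with 33.6 to 53.0 as against at most 6.90 in controls, but control with rapamycin 3 had a sum of 50.4 and Ccl6 at 0. The part of microglial RNA in the Ccl6 values was not tested. In sorted PCs Ccl6 was at 89.7 to 805 in controls and 182 to 1072 in mutants, which overlapped. Cxcl14, a chemokine found in several brain cell types, was at 13.7, 7.53 and 3.94 in the TRAP mutants and 1.81, 6.74 and 1.85 in mutants with rapamycin, which overlapped. It was at 0, 2.51 and 0 in controls and 0 in all controls with rapamycin.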
